A study of Mus musculus with 45 samples.

Results

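The mitotic spindle and division genes are 44 genes whose products drive mitosis: the cyclins and kinase that start it, the motors and fibres of the spindle, the proteins that hold and sort chromosomes, and the machinery that cuts the cell apart. They were taken by gene symbol from a list of names, and all 44 were found among the 23420 genes of the count table and passed the filter on low counts, which left 14668 genes for testing. By role, 1 is a transcription factor, 4 are cyclins and their kinase, 3 are other mitotic kinases, 3 form the chromosomal passenger complex, 4 belong to the spindle checkpoint, 3 work with ubiquitin ligases, 5 sit at the kinetochore or centromere, 7 are kinesin motors, 5 assemble the spindle, 7 shape the chromosomes and 2 act in cytokinesis. The genes lie on 15 mouse chromosomes, with at most 7 on any one (chromosome 2).

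RNA was sequenced from T cells sorted from mice that carried B16 tumours, a transplanted mouse melanoma. Regulatory T cells (Tregs) are CD4 T cells that depend on Foxp3 and hold back immune responses. They were sorted from the tumour and from a lymph node that does not drain it, while the effector T cells, of WT mice, were from the tumour only. The labels give 4 kinds of Treg: N, kept apart by its titles and carrying the same genotype tag as the next kind; HetNrp1def, tagged as Nrp1-negative Tregs of heterozygous mice; HetWT, tagged as wild-type Tregs of heterozygous mice; and WT, from wild-type mice. The design text names homozygous Nrp1-deficient mice besides heterozygous ones, but no label ties the N samples to them. The sources used here do not give the allele, the promoter behind it, age, sex or the number of mice per sample. Nor do they say that replicates are separate animals, so p-values reflect the spread among these samples, part or all of which may be technical. Each of the 9 groups had 5 libraries, 3 numbered 2 to 4 and a pair named ds1 and ds2, read here as double-sorted. In each heterozygous group a pair of libraries was nearly identical and was summed as sample 4, so n is 4 there and 5 elsewhere (41 samples in all). The pair was ds1 and 4 in both heterozygous tumour groups and 3 and 4 in both heterozygous lymph node groups. In the tumour groups sample 4 thus holds a library read as double-sorted and one read as single-sorted.

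The ds2 libraries were the shallowest, at 2945640 to 5408380 counts each, and the deepest of all 45 held 35787100, with a median over all of 10248100. Nrp1, the targeted gene, did not part the labels in tumours: it ran from 130.1 to 184.1 CPM in N tumour Tregs and from 105.1 to 259.5 CPM in HetNrp1def tumour Tregs, within the range of 103.0 to 290.3 CPM in WT tumour Tregs. In lymph node it ran from 144.4 to 337.9 CPM in N and from 145.7 to 341.8 CPM in HetNrp1def Tregs, against 219.2 to 1439 CPM in HetWT and 264.6 to 412.1 CPM in WT Tregs, ranges that overlapped. The lymph node medians were 187 CPM in N and 151 CPM in HetNrp1def, against 337 CPM in HetWT and 388 CPM in WT Tregs. The N and HetNrp1def groups are named below by their labels. The 7 Treg markers (Foxp3, Ikzf2, Il2ra, Ctla4, Tnfrsf18, Ikzf4, Lrrc32) summed to 3753 to 9723 CPM in tumour Tregs, to 1989 to 5395 CPM in lymph node Tregs and to 115.0 to 280.8 CPM in tumour effector T cells. In tumour effector T cells 8 T cell markers summed to 5463 to 9448 CPM and the CD8 markers Cd8a and Cd8b1 to 2.81 to 75.8 CPM. The CD8 markers summed to 15.9 to 223.5 CPM in tumour Tregs and to 1.80 to 223.3 CPM in lymph node Tregs. Their group medians were 60.5 to 161.5 CPM in Tregs and 28.7 CPM in effector T cells. CPM were computed from library sizes scaled by TMM, edgeR's normalization.

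A cell that divides makes most of these transcripts for a short time only. They build up in G2 and mitosis and are shut down again in G1, so in a mixture of cells their level is commonly read as a sign of how many cells are cycling. Cyclin B with Cdk1 starts mitosis, the kinesins and their partners build the spindle, the checkpoint holds the cell until every chromosome is attached, and the anaphase-promoting complex then destroys cyclin B so that the cell can divide. Many of their promoters carry CCAAT words, bound by the activator NF-Y, and a word known as the cell cycle homology region, through which a repressor complex keeps them silent outside the cycle. In bulk RNA, fewer cycling cells and less of each transcript per cycling cell cannot be told apart.

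The promoters of the set show these words directly. The lines give 140 bases of 8 members, from 120 bases before to 20 after the RefSeq gene start, on the gene's own strand (build GRCm38.p6). Capitals mark CCAAT and the homology words TTTGAA or TTCGAA, read on both strands, so that ATTGG and TTCAAA are the same words reversed. The 8 were picked to show the arrangements met in the set. Cdk1 to Top2a hold both words in the stretch shown, Mki67 only the homology word, and Ccnb1 and Smc2 only CCAAT.
Cdk1, chr10:69352893-69353032, minus strand: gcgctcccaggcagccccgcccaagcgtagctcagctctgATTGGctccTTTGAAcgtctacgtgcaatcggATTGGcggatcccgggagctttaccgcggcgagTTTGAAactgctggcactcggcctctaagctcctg
Ccnb2, chr9:70421535-70421674, minus strand: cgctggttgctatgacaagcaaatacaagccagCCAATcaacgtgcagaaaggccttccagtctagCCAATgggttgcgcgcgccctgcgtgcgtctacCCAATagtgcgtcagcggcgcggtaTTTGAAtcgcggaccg
Cdc20, chr4:118437324-118437463, minus strand: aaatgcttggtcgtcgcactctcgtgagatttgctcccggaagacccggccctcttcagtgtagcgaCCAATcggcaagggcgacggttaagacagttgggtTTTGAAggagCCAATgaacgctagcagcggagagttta
Ube2c, chr2:164769809-164769948, plus strand: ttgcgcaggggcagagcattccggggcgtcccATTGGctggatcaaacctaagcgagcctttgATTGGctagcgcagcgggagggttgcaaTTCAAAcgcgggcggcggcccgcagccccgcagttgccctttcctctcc
Top2a, chr11:99024170-99024309, minus strand: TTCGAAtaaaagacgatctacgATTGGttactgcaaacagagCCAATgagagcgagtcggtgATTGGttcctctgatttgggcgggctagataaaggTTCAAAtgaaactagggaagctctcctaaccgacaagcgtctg
Mki67, chr7:135716360-135716499, minus strand: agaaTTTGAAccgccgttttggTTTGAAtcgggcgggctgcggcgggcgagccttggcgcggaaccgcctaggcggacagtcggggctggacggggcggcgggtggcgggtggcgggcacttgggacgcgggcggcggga
Ccnb1, chr13:100786467-100786606, minus strand: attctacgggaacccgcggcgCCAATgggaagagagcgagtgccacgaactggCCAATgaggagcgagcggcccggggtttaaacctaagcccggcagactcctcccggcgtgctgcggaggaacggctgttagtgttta
Smc2, chr4:52439101-52439240, plus strand: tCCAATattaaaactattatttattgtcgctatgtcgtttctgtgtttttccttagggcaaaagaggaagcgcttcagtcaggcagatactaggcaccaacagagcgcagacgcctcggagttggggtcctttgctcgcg

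Of the 44 members, 38 matched a RefSeq window of 250 bases before to 50 after the start, in 40 windows. CCAAT was present in 77.5% of these windows, against 37.4% of all 32851 windows. TTTGAA or TTCGAA was present in 80% of member windows, against 19.2% of all windows. Both words together were held by 70% of member windows, against 7.52% of all. In 1 of the 40 windows a CCAAT and a homology word shared bases, and 55% of member windows held CCAAT more than once, against 11.7% of all. Birc5, Mad2l1, Ncaph, Nuf2 and Nusap1 held neither word. The members were listed as division genes, whose promoters are known for these words, and a match is only a run of letters: no binding was measured here.

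**Figure D1:**
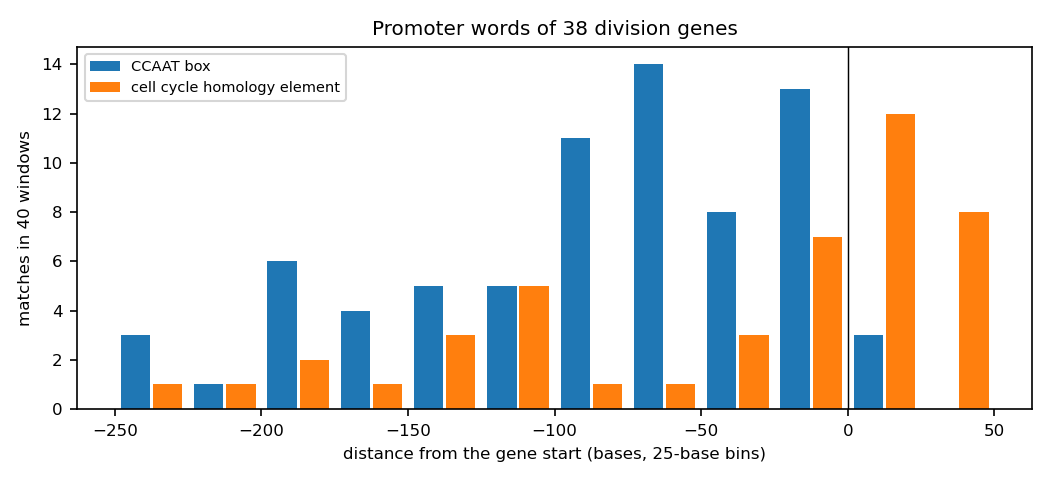
Matches of the 2 promoter words in the 40 RefSeq windows of 38 division genes, by distance from the gene start in bases (25-base bins, y axis: number of matches). Of the 73 CCAAT matches, 46 lie in the 100 bases before the start; of the 45 homology words, 12 lie there, and their median first base is at -17.

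The main contrast in the data was between Tregs of any kind and effector T cells. On the mean of log2(CPM + 1) over the 44 genes, N tumour Tregs stood at 5.62 ± 0.39 (SD, n = 5), HetNrp1def tumour Tregs at 5.77 ± 0.39 (n = 4), HetWT tumour Tregs at 6.01 ± 0.54 (n = 4) and WT tumour Tregs at 5.74 ± 0.25 (n = 5). In lymph node the same means were 5.03 ± 0.49 in N (n = 5), 4.20 ± 0.83 in HetNrp1def (n = 4), 5.06 ± 0.57 in HetWT (n = 4) and 4.82 ± 0.29 in WT Tregs (n = 5). Tumour effector T cells stood at 1.83 ± 0.22 (n = 5). The lowest of the 36 Treg samples, HetNrp1def lymph node ds1 at 3.10, was above the highest effector sample at 2.14.

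**Figure D2:**
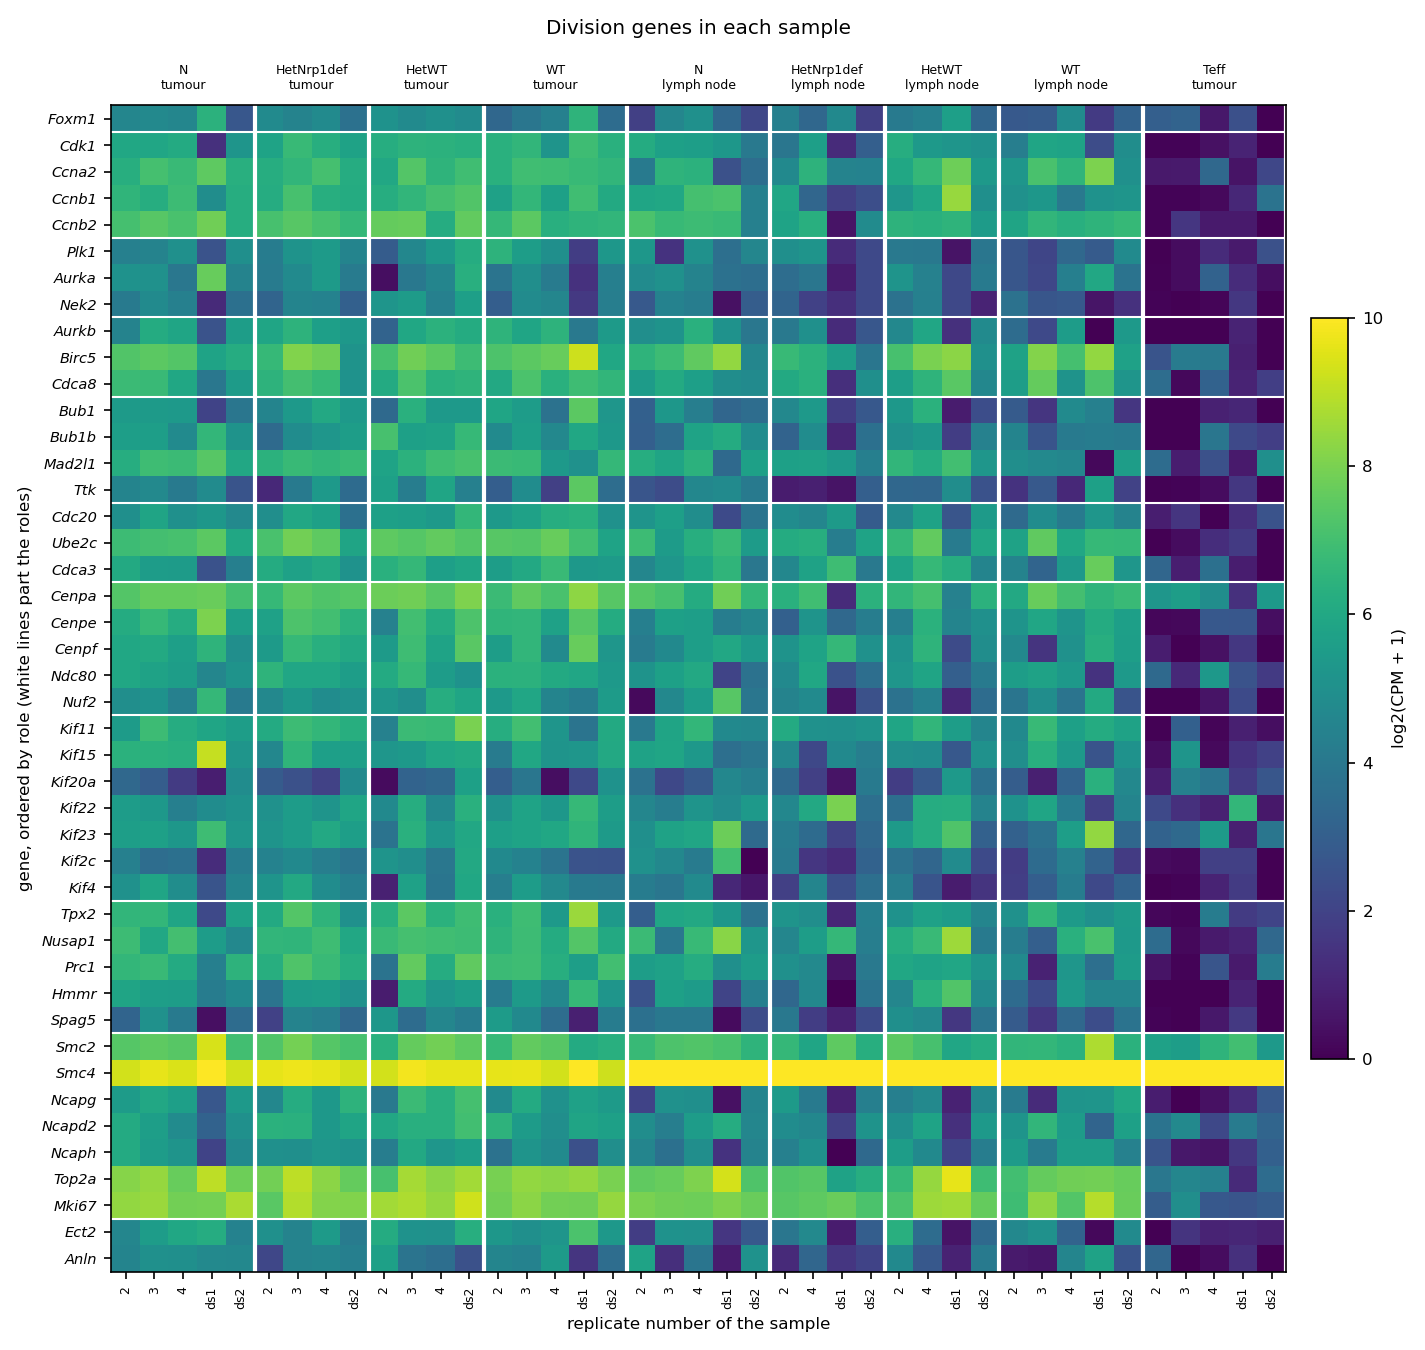
Heat map of log2(CPM + 1) of the 44 division genes (rows, by role) in the 41 samples (columns, by group and replicate number), on a colour scale from 0 to 10 that Smc4 exceeds in many samples. The 5 effector columns at the right are near 0 for most genes, while Smc4 and Smc2 keep their colour there.

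Tumour Tregs against tumour effector T cells was tested for each kind of Treg with edgeR's quasi-likelihood test, with p-values adjusted by Benjamini-Hochberg over all 14668 genes and called below 0.05. In WT tumour Tregs 33 of the 44 genes were higher and 1 was lower, where 4.10% of all genes were higher and 1.61% lower. In N tumour Tregs 35 were higher and 0 lower (3.77% and 1.39% of all genes), with 1 lower at an unadjusted p under 0.05. In HetNrp1def tumour Tregs 33 were higher and 0 lower (3.44% and 1.06%), and in HetWT tumour Tregs 35 were higher and 0 lower (3.57% and 1.15%), each with 1 lower at an unadjusted p under 0.05. The median log2 fold change of the members was 4.71 in WT, 4.35 in N, 4.47 in HetNrp1def and 4.81 in HetWT. All tumour Treg samples lay above all effector samples for 34 of 44 members in WT, 29 in N, 36 in HetNrp1def and 33 in HetWT. Of all genes, 4.62%, 4.92%, 6.37% and 5.09% did so, in that order. Smc4 alone lay wholly below, in HetNrp1def and HetWT, as did 3.89% and 3.40% of all genes. These comparisons all use the same 5 effector samples, so their likeness is not independent evidence. With the ds1 and ds2 libraries alone, 2 a group, 3 members were called in WT, 3 in N, 4 in HetNrp1def and 6 in HetWT, while the median log2 fold changes were 4.07 in WT, 4.0 in N, 4.34 in HetNrp1def and 5.11 in HetWT. With limma on the authors' log2 values the counts were 9 in WT, 30 in N, 14 in HetNrp1def and 20 in HetWT, with medians of 2.16, 3.08, 2.36 and 2.84 in that order. Leaving out 1 sample ended the call of Bub1b, Kif2c, Ndc80 and Smc4 in WT, of Plk1, Cdca3, Ncaph and Smc2 in N, of Aurka, Cenpa, Kif2c, Ncaph and Spag5 in HetNrp1def and of Aurka, Ncapd2 and Ncaph in HetWT, for at least 1 choice of sample.

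Among the cyclins and their kinase, all 4 genes were higher in every kind of tumour Treg. Cdk1, the kinase that starts mitosis, had 79.9, 94.1, 34.9, 119 and 79.6 CPM in WT tumour Tregs, 18.5, 57.4, 55.3, 3.96 and 28.6 CPM in WT lymph node Tregs and 0.0619, 0.0807, 0.365, 0.972 and 0 CPM in tumour effector T cells, with samples listed in the order 2, 3, 4, ds1, ds2 here and below. The effector samples all lay below 1 CPM, under every Treg sample of the series. Cdk1 was higher than in effector T cells by 8.05 in WT, 7.20 in N, 7.89 in HetNrp1def and 8.05 in HetWT tumour Tregs on the log2 scale (SE 0.98 to 1.02, adjusted p 5.05e-08 to 3.30e-07). A lone low Treg value stood out: the ds1 sample of N tumour Tregs had 1.59 CPM, where the other 4 had 35.7 to 68.6 CPM. Ccnb1, cyclin B1, the partner whose destruction ends mitosis, had 51.9, 97.4, 51, 120.1 and 66 CPM in WT tumour Tregs, 32.4, 37.7, 15.3, 32.8 and 36.1 CPM in WT lymph node Tregs and 0.0619, 0.0807, 0.182, 1.19 and 12.9 CPM in tumour effector T cells. Both Treg groups lay wholly above the effector samples, the ds2 effector sample being the nearest. It was higher by 4.89 in WT, 4.88 in N, 5.08 in HetNrp1def and 5.44 in HetWT tumour Tregs on the log2 scale (SE 0.97 to 1.01, adjusted p 1.94e-04 to 5.02e-04). Ccnb2, a second B-type cyclin, was higher by 7.24 in WT, 7.70 in N, 7.55 in HetNrp1def and 7.88 in HetWT tumour Tregs on the log2 scale (SE 0.82 to 0.85, adjusted p 1.05e-09 to 4.04e-09), and Ccna2, cyclin A2, which acts in S phase and G2, by 5.17 in WT, 5.33 in N, 5.01 in HetNrp1def and 5.24 in HetWT tumour Tregs on the log2 scale (SE 0.81 to 0.82, adjusted p 3.96e-06 to 1.72e-05).

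Foxm1, the forkhead factor that switches on G2 and mitosis genes, did not pass. It had 9, 14, 19.7, 90.2 and 10.6 CPM in WT tumour Tregs, 5.87, 6.23, 27.4, 2.22 and 7.87 CPM in WT lymph node Tregs and 7.21, 7.98, 0.547, 4.43 and 0 CPM in tumour effector T cells. The WT tumour samples lay above all effector samples, 4 of them by little and ds1 by far, and the log2 fold changes were 2.81 in WT, 2.99 in N, 2.40 in HetNrp1def and 2.85 in HetWT tumour Tregs (SE 0.94 to 0.97, adjusted p 0.0502 to 0.167).

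Of the mitotic kinases, Plk1, which matures centrosomes and promotes mitotic entry, had 87.8, 46, 30.2, 2.56 and 37.8 CPM in WT tumour Tregs, 5.44, 3.3, 9.39, 6.34 and 26.7 CPM in WT lymph node Tregs and 0, 0.242, 1.37, 0.648 and 4.58 CPM in tumour effector T cells. The ds1 sample of WT tumour Tregs fell below the ds2 effector sample, so the groups overlapped. Plk1 was higher by 5.01 in WT, 4.07 in N, 4.51 in HetNrp1def and 4.82 in HetWT tumour Tregs on the log2 scale (SE 1.10 to 1.15, adjusted p 0.00248 to 0.0142). Nek2, which parts the centrosomes, was higher by 5.10 in WT, 5.06 in N, 5.02 in HetNrp1def and 6.37 in HetWT tumour Tregs on the log2 scale (SE 1.22 to 1.31, adjusted p 7.76e-04 to 0.00734). Aurka, the centrosomal Aurora kinase, was higher by 4.92 in N, 3.67 in HetNrp1def and 3.84 in HetWT tumour Tregs on the log2 scale (adjusted p 0.00379 to 0.0433), while the estimate of 3.02 in WT did not pass (adjusted p 0.0874; SE 1.07 to 1.16).

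All 3 genes of the chromosomal passenger complex, which corrects faulty attachments and later marks the site of cleavage, were higher. Aurkb, its kinase, had 90.3, 58, 88.1, 15.6 and 42.6 CPM in WT tumour Tregs, 10.4, 3.58, 44.7, 0 and 41.5 CPM in WT lymph node Tregs and 0, 0, 0, 0.972 and 0 CPM in tumour effector T cells. In effector T cells it had reads in the ds1 sample alone, so its fold change rests on those few counts. Aurkb was higher by 8.25 in WT, 7.69 in N, 8.24 in HetNrp1def and 8.17 in HetWT tumour Tregs on the log2 scale (SE 1.32 to 1.35, adjusted p 1.76e-05 to 4.21e-05). Birc5, survivin, which brings the complex to the centromere, had 146, 179.7, 203, 596 and 61.7 CPM in WT tumour Tregs, 52.7, 285, 131, 335 and 51.7 CPM in WT lymph node Tregs and 5.13, 17, 15.3, 0.864 and 0 CPM in tumour effector T cells. No WT Treg sample reached down to the effector range. Birc5 was higher by 4.93 in WT, 3.99 in N, 4.36 in HetNrp1def and 4.38 in HetWT tumour Tregs on the log2 scale (SE 0.85 to 0.89, adjusted p 1.59e-04 to 0.00156), and Cdca8, borealin, by 4.46 in WT, 3.91 in N, 4.27 in HetNrp1def and 4.38 in HetWT tumour Tregs on the log2 scale (SE 0.79 to 0.82, adjusted p 9.78e-05 to 5.40e-04).

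The spindle checkpoint genes delay anaphase until all chromosomes are attached. Bub1, a kinetochore kinase, was higher by 7.32 in WT, 6.11 in N, 6.66 in HetNrp1def and 6.70 in HetWT tumour Tregs on the log2 scale (SE 1.22 to 1.28, adjusted p 5.49e-05 to 4.54e-04). It was at 0 in 3 of the 5 effector samples and at 1.08 CPM at most, so its fold change rests on few counts. Ttk, the Mps1 kinase that starts the checkpoint signal, was higher by 6.50 in WT, 5.25 in N, 5.09 in HetNrp1def and 6.19 in HetWT tumour Tregs on the log2 scale (SE 1.26 to 1.33, adjusted p 6.20e-04 to 0.00838). Mad2l1, the Mad2 protein that holds Cdc20 inactive, was higher by 3.09 in WT, 3.53 in N, 3.40 in HetNrp1def and 3.42 in HetWT tumour Tregs on the log2 scale (SE 0.77 to 0.80, adjusted p 0.00187 to 0.00635). Bub1b, BubR1, was higher by 3.29 in WT, 3.64 in N and 4.40 in HetWT tumour Tregs on the log2 scale (adjusted p 0.00391 to 0.0271), while the estimate of 2.90 in HetNrp1def did not pass (adjusted p 0.0805; SE 0.96 to 1.03).

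The partners of ubiquitin ligases were among the most uniform. Ube2c, the ubiquitin-conjugating enzyme of the anaphase-promoting complex, had 169, 159, 205, 124 and 54.7 CPM in WT tumour Tregs, 52.7, 189, 61.4, 102 and 101 CPM in WT lymph node Tregs and 0, 0.242, 1.46, 2.27 and 0 CPM in tumour effector T cells. All 36 Treg samples of the series lay above the highest effector sample. Ube2c was higher by 7.45 in WT, 7.25 in N, 7.56 in HetNrp1def and 7.75 in HetWT tumour Tregs on the log2 scale (SE 0.82 to 0.84, adjusted p 1.43e-09 to 3.78e-09). Cdc20, the activator of that complex, was higher by 5.00 in WT, 4.39 in N, 4.47 in HetNrp1def and 5.08 in HetWT tumour Tregs on the log2 scale (SE 0.85 to 0.89, adjusted p 5.03e-05 to 3.21e-04), and Cdca3, an adaptor for the degradation of the mitotic inhibitor Wee1, by 3.72 in WT, 2.97 in N, 3.58 in HetNrp1def and 3.97 in HetWT tumour Tregs on the log2 scale (SE 0.83 to 0.89, adjusted p 0.00227 to 0.0196).

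At the kinetochore, Cenpe, a motor that carries chromosomes to the spindle equator, was higher by 5.32 in WT, 5.52 in N, 5.42 in HetNrp1def and 5.23 in HetWT tumour Tregs on the log2 scale (SE 0.83 to 0.85, adjusted p 3.83e-06 to 1.28e-05). Cenpf, a large protein of the outer kinetochore, was higher by 6.93 in WT, 6.48 in N, 6.75 in HetNrp1def and 7.17 in HetWT tumour Tregs on the log2 scale (SE 0.94 to 0.98, adjusted p 4.48e-07 to 1.67e-06). Nuf2 and Ndc80 belong to the complex that grips microtubules. Nuf2 was higher by 5.43 in WT, 5.53 in N, 5.16 in HetNrp1def and 5.85 in HetWT tumour Tregs on the log2 scale (SE 1.21 to 1.25, adjusted p 0.00133 to 0.00467). It was at 0 in 3 of the 5 effector samples and at 3.78 CPM at most. Ndc80, which kept reads in every effector sample, was higher by 2.54 in WT tumour Tregs on the log2 scale (adjusted p 0.0458), while the estimate of 1.94 in N, 2.46 in HetNrp1def and 2.45 in HetWT did not pass (adjusted p 0.0767 to 0.165; SE 0.78 to 0.82). Cenpa, the histone H3 variant that marks the centromere, was higher by 2.58 in WT, 2.53 in N, 2.26 in HetNrp1def and 2.83 in HetWT tumour Tregs on the log2 scale (SE 0.60 to 0.62, adjusted p 0.00186 to 0.0167).

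The 7 kinesins split. Kif11, the motor that pushes the spindle poles apart, was higher by 5.14 in WT, 5.24 in N, 5.65 in HetNrp1def and 6.09 in HetWT tumour Tregs on the log2 scale (SE 0.88 to 0.93, adjusted p 4.14e-06 to 3.74e-05). Kif4, a chromosome-bound kinesin, was higher by 5.09 in WT, 5.37 in N, 5.70 in HetNrp1def and 5.50 in HetWT tumour Tregs on the log2 scale (SE 1.20 to 1.25, adjusted p 0.00197 to 0.0037). Kif2c, which takes microtubules apart at the centromere, was higher by 3.55 in WT, 4.05 in HetNrp1def and 4.93 in HetWT tumour Tregs on the log2 scale (adjusted p 0.00472 to 0.0369), while the estimate of 3.37 in N did not pass (adjusted p 0.0538; SE 1.08 to 1.18). Kif15, which helps Kif11 keep the spindle bipolar, was higher by 4.31 in N tumour Tregs on the log2 scale (adjusted p 0.00149), while the estimate of 2.36 in WT, 2.68 in HetNrp1def and 2.62 in HetWT did not pass (adjusted p 0.0805 to 0.103; SE 0.86 to 0.94). Kif20a, Kif22 and Kif23 passed in no kind of tumour Treg. Kif20a, which moves the passenger complex to the midzone, had 6.89, 14.2, 0.307, 3.63 and 32.9 CPM in WT tumour Tregs and 0.804, 20.1, 13.8, 2.37 and 5.43 CPM in tumour effector T cells, groups that overlapped widely. Its log2 fold changes were 0.44 in WT, 0.14 in N, 0.25 in HetNrp1def and 0.99 in HetWT tumour Tregs (SE 1.11 to 1.18, adjusted p 0.729 to 0.981). Kif22, another chromosome-bound kinesin, was low in 4 effector samples but had 96.3 CPM in effector ds1, above 4 of the 5 WT tumour Treg samples. Its log2 fold changes were 1.41 in WT, 0.68 in N, 1.05 in HetNrp1def and 1.30 in HetWT tumour Tregs (SE 0.85 to 0.90, adjusted p 0.431 to 0.813), and those of Kif23, the motor of the central spindle, were 1.99 in WT, 1.96 in N, 1.69 in HetNrp1def and 1.68 in HetWT tumour Tregs (SE 0.83 to 0.86, adjusted p 0.174 to 0.342).

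All 5 spindle assembly genes were higher in all kinds of tumour Treg. Hmmr, a microtubule-binding spindle protein, was higher by 7.83 in WT, 7.63 in N, 7.46 in HetNrp1def and 7.61 in HetWT tumour Tregs on the log2 scale (SE 1.30 to 1.31, adjusted p 2.61e-05 to 6.59e-05). It was at 0 in 4 of the 5 effector samples and at 0.972 CPM at most, so its fold change rests on few counts. Tpx2, which activates and localizes Aurora A, was higher by 4.79 in WT, 3.72 in N, 4.21 in HetNrp1def and 4.63 in HetWT tumour Tregs on the log2 scale (SE 0.91 to 0.97, adjusted p 4.79e-04 to 0.00609). Nusap1, which bundles spindle microtubules, was higher by 4.53 in WT, 4.12 in N, 4.42 in HetNrp1def and 4.79 in HetWT tumour Tregs on the log2 scale (SE 0.86 to 0.90, adjusted p 2.20e-04 to 9.04e-04). Prc1, which crosslinks the overlapping fibres of the central spindle, was higher by 4.38 in WT, 4.06 in N, 4.48 in HetNrp1def and 4.67 in HetWT tumour Tregs on the log2 scale (SE 0.91 to 0.95, adjusted p 6.77e-04 to 0.00211). Spag5, astrin, was higher by 5.12 in WT, 4.58 in N, 4.51 in HetNrp1def and 5.29 in HetWT tumour Tregs on the log2 scale (SE 1.23 to 1.29, adjusted p 0.00582 to 0.0208).

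Among the genes for chromosome structure, Mki67 and Top2a had the smallest standard errors of the 33 genes that were higher in WT tumour Tregs. Mki67, the Ki-67 protein that coats mitotic chromosomes and is the usual stain for cycling cells, had 335, 364, 233, 240.2 and 429 CPM in N tumour Tregs, 172, 454, 282 and 271 CPM in HetNrp1def tumour Tregs (order 2, 3, 4, ds2), 387, 438, 345 and 625 CPM in HetWT tumour Tregs (same order) and 227, 308, 235, 224 and 339 CPM in WT tumour Tregs. It had 6.77, 29.6, 5.84, 5.29 and 6.58 CPM in tumour effector T cells. The lowest tumour Treg sample was several times the highest effector sample, itself the only one above 7 CPM. Mki67 was higher by 4.62 in WT, 4.88 in N, 4.76 in HetNrp1def and 5.37 in HetWT tumour Tregs on the log2 scale (SE 0.46 to 0.48, adjusted p 5.61e-12 to 9.76e-11). Top2a, the topoisomerase that untangles sister chromosomes, had 244, 334, 309, 341 and 252 CPM in WT tumour Tregs, 126, 199.5, 227, 236 and 202 CPM in WT lymph node Tregs and 14.6, 23.1, 20.2, 1.3 and 10.6 CPM in tumour effector T cells. It too separated the groups with no overlap, and was higher by 4.40 in WT, 4.48 in N, 4.48 in HetNrp1def and 4.46 in HetWT tumour Tregs on the log2 scale (SE 0.55 to 0.57, adjusted p 3.76e-08 to 8.51e-08).

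The condensins, the ring complexes that compact chromosomes, behaved unevenly. Ncapg, a subunit of condensin I, was higher by 4.81 in WT, 4.68 in N, 5.13 in HetNrp1def and 5.73 in HetWT tumour Tregs on the log2 scale (SE 1.08 to 1.15, adjusted p 5.37e-04 to 0.003). Ncaph, the linker subunit of condensin I, was higher by 3.53 in N, 3.44 in HetNrp1def and 3.77 in HetWT tumour Tregs on the log2 scale (adjusted p 0.0114 to 0.023), while the estimate of 2.83 in WT did not pass (adjusted p 0.0553; SE 0.92 to 0.98). Ncapd2, another subunit of condensin I, was higher by 2.68 in HetWT tumour Tregs on the log2 scale (adjusted p 0.0199), while the estimate of 2.00 in WT, 1.44 in N and 2.26 in HetNrp1def did not pass (adjusted p 0.063 to 0.278; SE 0.69 to 0.74). Smc2 and Smc4 form the ATPase core shared by both condensins. Smc2 was higher by 1.88 in N tumour Tregs on the log2 scale (adjusted p 0.0118), while the estimate of 0.79 in WT, 1.30 in HetNrp1def and 1.29 in HetWT did not pass (adjusted p 0.158 to 0.434; SE 0.48 to 0.51). In N the Smc2 call was lost without the ds1 tumour sample (adjusted p = 0.168). Smc4 alone ran the other way and is described with the tissues below.

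Of the cytokinesis genes, Ect2, the activator of RhoA at the cleavage furrow, was higher by 5.90 in WT, 5.54 in N, 4.88 in HetNrp1def and 5.79 in HetWT tumour Tregs on the log2 scale (SE 1.13 to 1.18, adjusted p 3.74e-04 to 0.00373). Anln, anillin, a scaffold of the contractile ring, gave log2 fold changes of 3.14 in WT, 3.57 in N, 2.88 in HetNrp1def and 3.15 in HetWT tumour Tregs (SE 1.20 to 1.23, adjusted p 0.0795 to 0.213), none of which passed.

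**Figure D3:**
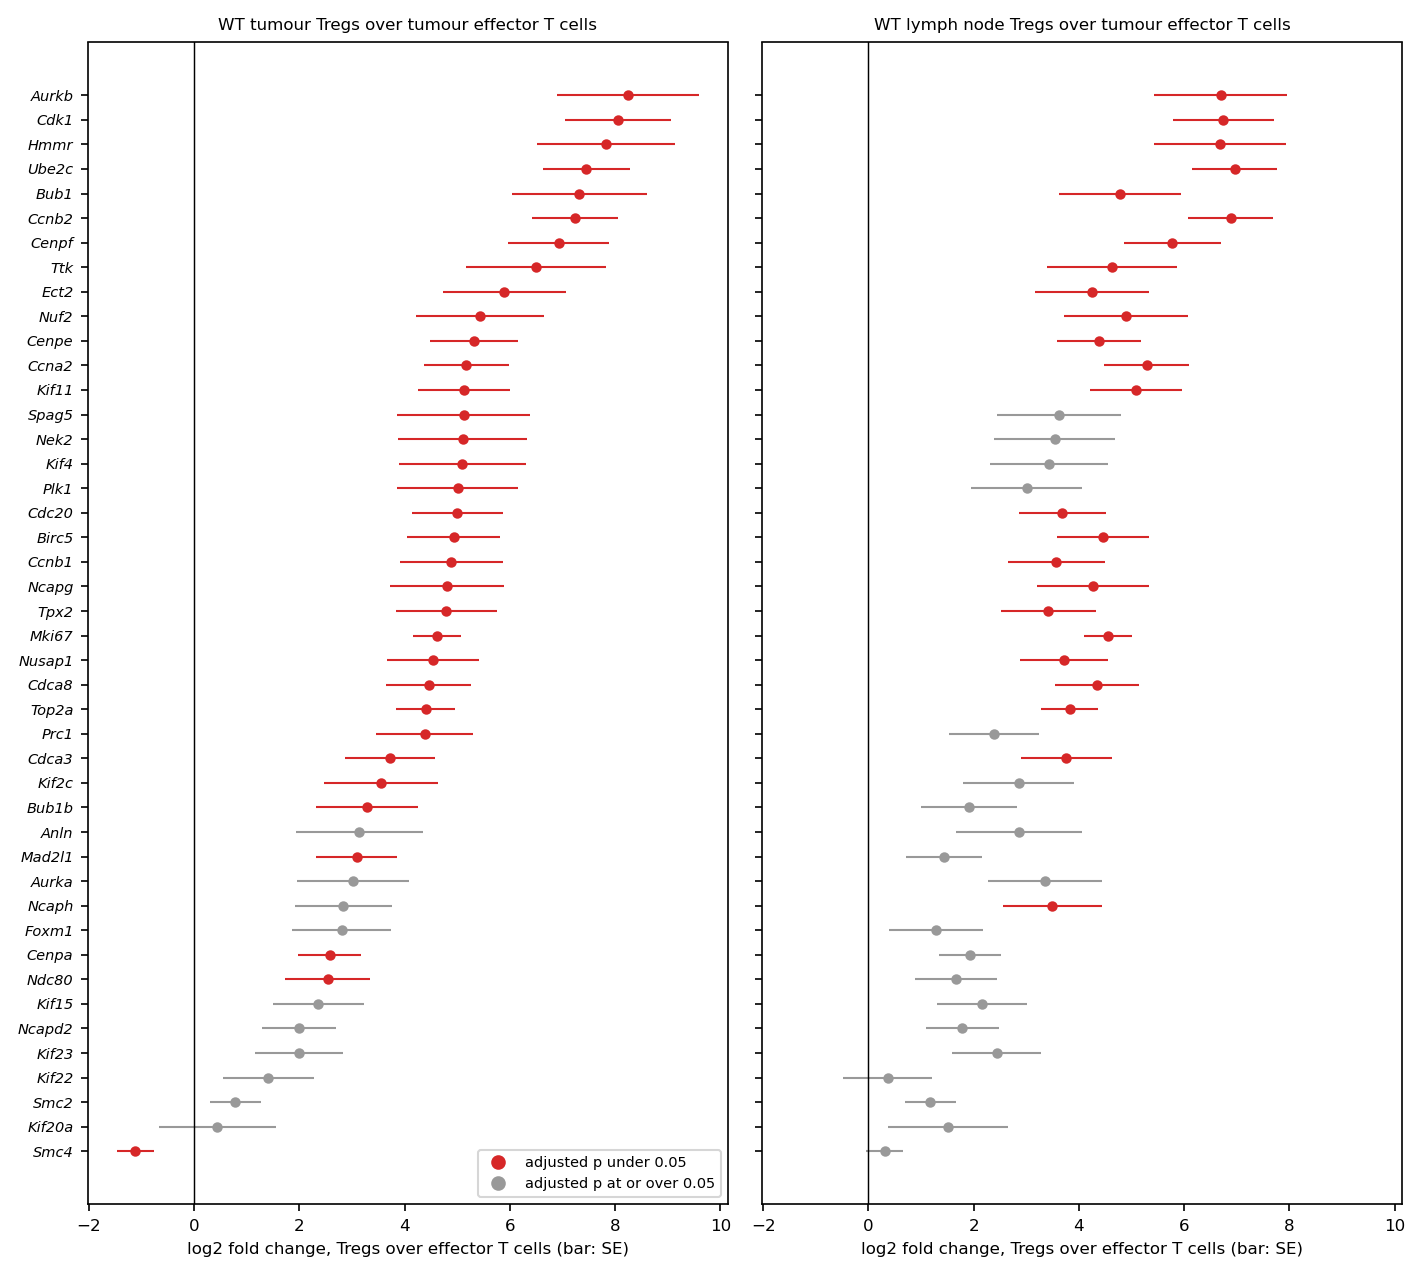
Log2 fold change (x axis, bars: SE) of each division gene in tumour Tregs over tumour effector T cells and in lymph node Tregs over the same effector cells, by panel. Most points lie right of 0 with a median of 4.71 in WT tumour Tregs and 3.59 in WT lymph node Tregs; Smc4 is the one member left of 0 in tumour Tregs.

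Tregs of the WT lymph node, away from the tumour, also exceeded tumour effector T cells. Here 24 of 44 genes were higher and 0 lower, where 1.69% of all genes were higher and 0.102% lower, and 0 members were lower at an unadjusted p under 0.05. All 44 log2 fold changes were positive, as were 47.8% of those of all genes, with a median of 3.59 over the members. The Treg samples lay wholly above the effector samples for 19 members and wholly below for 0, where 1.53% and 0.811% of all genes did so. All 4 cyclin and kinase genes, all 3 passenger genes and all 3 ubiquitin ligase partners were among the 24. Mki67 led by adjusted p (log2 fold change 4.56, SE 0.46, adjusted p = 4.09e-10), followed by Ube2c (log2 fold change 6.96, SE 0.81, adjusted p = 1.89e-08) and Ccnb2 (log2 fold change 6.89, SE 0.81, adjusted p = 2.13e-08). Cdk1 (log2 fold change 6.74), Top2a (3.82), Ccna2 (5.29), Ccnb1 (3.57), Aurkb (6.69), Birc5 (4.46) and Cdca8 (4.34) passed as well. So did Bub1, Ttk, Cdc20, Cdca3, Cenpe, Cenpf, Nuf2, Kif11, Tpx2, Nusap1, Hmmr, Ncapg, Ncaph and Ect2, with log2 fold changes of 3.42 to 6.69. None of the 3 centrosomal and polo-type kinases passed: Plk1 gave 3.01 (adjusted p = 0.178) and Foxm1, the transcription factor, 1.28 (adjusted p = 0.777). In this comparison tissue and cell type change together and cannot be told apart. The count was 9 when only these 2 groups were fitted and 3 with the ds1 and ds2 libraries alone, and the calls of Ccnb1, Ttk, Cdca3, Nuf2, Tpx2, Ncapg, Ncaph and Ect2 were lost for at least 1 choice of a single sample left out.

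Tumour and lymph node Tregs differed far less. In WT Tregs 0 of 44 genes were higher and 1 lower (0.511% and 0.361% of all genes), and in HetNrp1def Tregs 0 were higher and 1 lower (0.348% and 0.307%). The gene was Smc4 each time. In N Tregs 0 were higher and 0 lower (0.566% and 0.225%), and in HetWT Tregs 0 and 0 (0.164% and 0.0750%). At an unadjusted p under 0.05, edgeR had 4 higher and 1 lower in WT, 4 and 1 in N, 10 and 1 in HetNrp1def and 2 and 1 in HetWT. Such a p, in either direction, was reached by 10.44% of all genes in WT, 9.504% in N, 11.33% in HetNrp1def and 8.12% in HetWT. DESeq2 called 0 in WT, 2 in HetNrp1def, 0 in N and 0 in HetWT. Median log2 fold changes of the members were 0.76 in WT, 0.55 in N, 1.29 in HetNrp1def and 0.87 in HetWT. All tumour samples lay above all lymph node samples for 4 of 44 members in WT, 0 in N, 12 in HetNrp1def and 8 in HetWT. Of all genes, 1.88%, 2.37%, 4.32% and 2.56% did so, in that order. Smc4 alone lay wholly below, in every kind of Treg but N. The 4 comparisons share no samples, and 26 of 44 members (59.1%) had a positive log2 fold change in every one, as did 15.1% of all genes. All 4 come from 1 fit, and HetNrp1def and HetWT Tregs are both of heterozygous mice, so their likeness is not fully independent evidence. These directions depended on the values used. On the authors' log2 values the members' median was -0.66 in WT, with 7 of 44 positive, 0.21 in N (29 positive), 0.35 in HetNrp1def (30 positive) and -0.016 in HetWT (22 positive). There Mki67 in WT Tregs was at -1.63, Birc5 at -1.56, Ccnb1 at -1.15, Top2a at -1.10 and Cdk1 at -0.83, none of them called.

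Averaged over the 4 genotypes, a comparison of 18 tumour with 18 lymph node Treg samples, 8 members were higher and 1 lower, where 5.84% of all genes were higher and 5.37% lower. The members' median was 0.88, against -0.08 over all genes, and 41 of 44 were positive, as were 45.1% of all genes. On the authors' log2 values that median was 0.15, with 24 of 44 positive. Cenpe had the smallest adjusted p of the 8. It had a lowest value of 20.2 CPM, a median of 88.2 and a highest value of 257 CPM in the 18 tumour Treg samples, against 7.4, 33.4 and 83.8 CPM in the 18 lymph node Treg samples (log2 fold change 1.62, SE 0.37, adjusted p = 0.00194). Of the tumour samples, 10 lay above every lymph node sample. Prc1, the central spindle crosslinker, had a lowest value of 12.9 CPM, a median of 93.4 and a highest value of 195 CPM in the 18 tumour Treg samples, against 0.451, 36.8 and 72.4 CPM in the 18 lymph node Treg samples (log2 fold change 1.57, SE 0.43, adjusted p = 0.0108). For Prc1, 14 tumour samples lay above every lymph node sample. Kif4, which works with Prc1 at the midzone, had a lowest value of 0.883 CPM, a median of 26.6 and a highest value of 64.9 CPM in the 18 tumour Treg samples, against 0.539, 6.04 and 26.3 CPM in the 18 lymph node Treg samples (log2 fold change 1.77, SE 0.55, adjusted p = 0.0249). The ranges overlapped, with 9 tumour samples above every lymph node sample. Tpx2 had a lowest value of 3.66 CPM, a median of 82.4 and a highest value of 364 CPM in the 18 tumour Treg samples, against 1.13, 34 and 98.7 CPM in the 18 lymph node Treg samples (log2 fold change 1.43, SE 0.44, adjusted p = 0.0253).

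The other 4 of the 8 were closer to the threshold. Ttk gave a log2 fold change of 1.65 (SE 0.57, adjusted p = 0.0472), Ccnb2 one of 0.95 (SE 0.33, adjusted p = 0.0481), Cenpa 0.87 (SE 0.30, adjusted p = 0.0494) and Kif15 1.28 (SE 0.44, adjusted p = 0.0499). Cdk1, with a lowest value of 1.59 CPM, a median of 74.7 and a highest value of 119 CPM in the 18 tumour Treg samples, against 1.35, 37 and 73.1 CPM in the 18 lymph node Treg samples, gave 1.05 and missed the threshold (adjusted p = 0.0696). Mki67 gave 0.49 (adjusted p = 0.135) and Top2a 0.50 (adjusted p = 0.23). Kif20a and Cdca3 joined Smc4 below 0, at -0.23 and -0.03, and neither passed. This mean of genotypes was added after the single comparisons had been seen. The count of 9 fell to 1, Smc4, without the samples that carried over 100 CPM of melanocyte markers, which leaves 2 WT, 4 N, 2 HetNrp1def and 2 HetWT tumour samples. It was 16 without the ds1 samples, which keeps the summed sample 4 of the heterozygous tumour groups, and 3 without the ds2 samples. Leaving out a single sample moved it most for HetNrp1def tumour 3, to 4 without it, and to 5 for HetWT tumour 2, 3 and ds2, HetWT lymph node ds2, HetNrp1def tumour 4, N tumour 3, N lymph node 3 and ds2 and WT lymph node 4. The calls of Cenpe, Prc1 and Smc4 were kept whichever of the 36 samples was left out. Those of Tpx2 and Kif4 were lost for 2 and 3 of them, and those of Ttk, Ccnb2, Kif15 and Cenpa for 20, 28, 29 and 30.

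**Figure D4:**
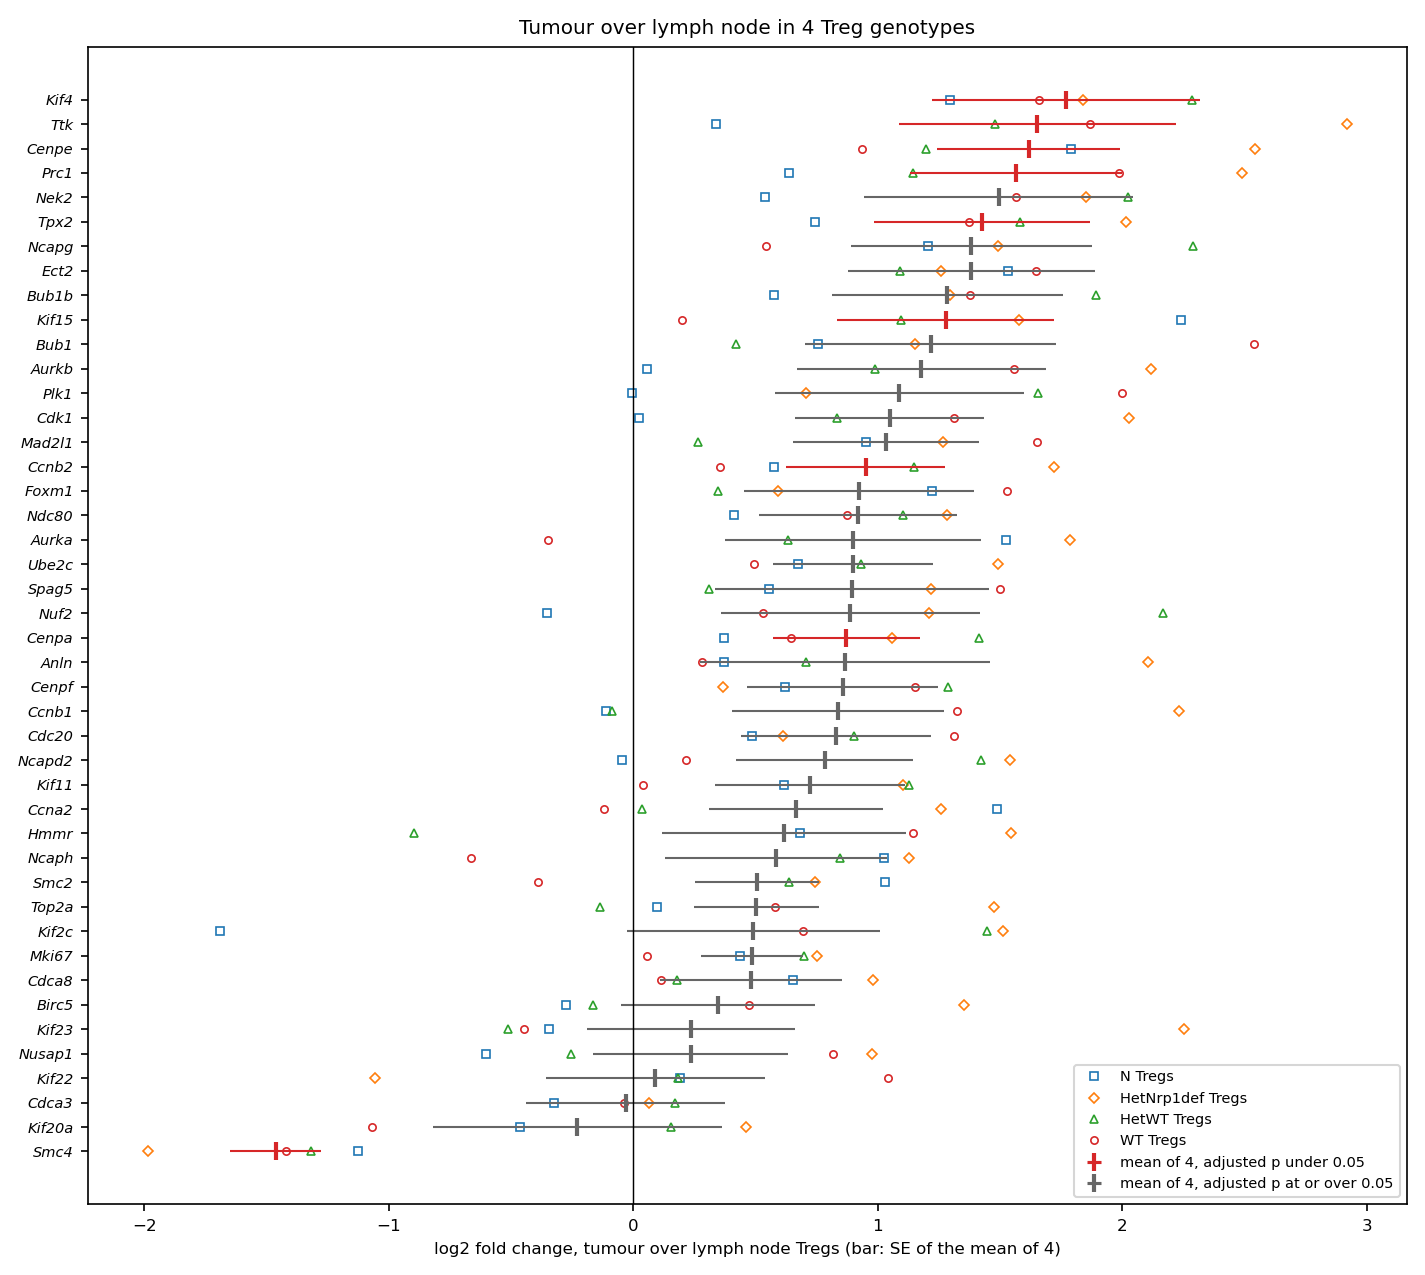
Log2 fold change of each division gene in tumour over lymph node Tregs, for the 4 genotypes (points) and their mean (bar: SE). Most genes lie right of 0 with wide scatter between genotypes, Cenpe, Kif4 and Prc1 among them; all 4 points of Smc4 lie left of 0, at a mean of -1.46.

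Smc4 was the exception of the set in both comparisons. The gene lies at chr3:69004738-69034623 on the plus strand (mm10, GENCODE vM21), and no other annotated gene overlaps its exons. It had 638, 800.3, 697, 1619.8 and 639 CPM in N tumour Tregs, against 1621, 1948, 1411, 3360.3 and 1233 CPM in N lymph node Tregs. It had 785, 863, 786 and 643 CPM in HetNrp1def tumour Tregs (2, 3, 4, ds2), against 1605, 2209.8, 6753 and 1599.8 CPM in HetNrp1def lymph node Tregs (2, 4, ds1, ds2). In HetWT mice it had 632, 908, 782 and 785 CPM in HetWT tumour Tregs (2, 3, 4, ds2), against 1563, 2045, 2858 and 1271 CPM in HetWT lymph node Tregs (2, 4, ds1, ds2). It had 788, 811, 644, 1120.5 and 610.2 CPM in WT tumour Tregs, against 1985, 2115, 1837, 3271 and 1431 CPM in WT lymph node Tregs. Tumour and lymph node samples did not overlap in HetNrp1def, HetWT or WT Tregs, where 2.67%, 2.11% and 1.25% of all genes lay wholly lower in tumour. In N Tregs they overlapped through the ds1 tumour sample alone, and within each replicate number that both tissues had, the tumour sample was the lower one. Where ds1 was a sample of its own, it had the highest Smc4 value of its group. The heterozygous tumour groups had no such sample, as ds1 was summed into their sample 4, while their lymph node groups did. So no separate ds1 tumour sample could overlap there as in N, and their fold changes set a ds1 lymph node sample against none. The log2 fold changes were -1.12 in N (SE 0.35, adjusted p = 0.137), -1.98 in HetNrp1def (SE 0.40, adjusted p = 0.00407), -1.32 in HetWT (SE 0.39, adjusted p = 0.185) and -1.42 in WT Tregs (SE 0.35, adjusted p = 0.0262). The call in WT was lost without lymph node sample 3 or ds1 or tumour sample 2 or ds2, and in HetNrp1def without lymph node ds1. Over the 4 genotypes the log2 fold change was -1.46 (SE 0.19, adjusted p = 5.30e-08), and it lay between -1.60 and -0.96, called each time, in all alternative settings tried.

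Tumour effector T cells had 1144, 1246, 1643, 3468 and 1094 CPM of Smc4. WT tumour Tregs were lower than these (log2 fold change -1.11, SE 0.35, adjusted p = 0.0419), with the ds1 Treg sample inside the effector range. This call was lost with DESeq2 (adjusted p = 0.162), without effector ds1 (log2 fold change -0.68, adjusted p = 0.312) and without WT tumour 2 (adjusted p = 0.0828) or ds2 (adjusted p = 0.102), and on the authors' log2 values the estimate was 0.048. The estimates of -0.97 in N, -1.16 in HetNrp1def and -1.15 in HetWT tumour Tregs did not pass (adjusted p 0.0613 to 0.0972). WT lymph node Tregs gave 0.31 (adjusted p = 0.939). Smc2, its partner in the condensin core, gave 0.51 between tissues (adjusted p = 0.225).

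Smc4 also hosts the miR-15b and miR-16-2 hairpins inside its gene body. The mature 5p strands are shown with the seed, bases 2 to 8, in capitals, since the seed sets which messages a miRNA binds and both share the same one (RefSeq, GRCm38.p6). miR-15b-5p lies at chr3:69009775-69009796 and miR-16-5p at chr3:69009918-69009939, both on the plus strand.
mmu-miR-15b-5p: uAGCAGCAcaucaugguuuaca
mmu-miR-16-5p: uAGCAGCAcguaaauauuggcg
This miRNA family is known to hold back G1 cyclins. No mature miRNA was measured in these libraries, and any tie between their level and the Smc4 counts was not tested.

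Between genotypes within a tissue, no member was called in any of 8 comparisons, where 0% of all genes were called in either direction. In tumours these were N, HetNrp1def and HetWT each against WT and HetNrp1def against HetWT. In lymph nodes they were the same 4. At an unadjusted p under 0.05, edgeR had 2 higher and 0 lower in N against WT tumour Tregs, 1 higher and 1 lower in N against WT lymph node Tregs and 2 higher and 0 lower in HetWT against WT lymph node Tregs. It had 0 higher and 5 lower in HetNrp1def against HetWT lymph node Tregs and 0 higher and 3 lower in HetNrp1def against WT lymph node Tregs. In the other 3 comparisons, all in tumours, it had 0 in either direction. Of all genes, 2.56% were at such a p in N against WT tumour Tregs and 1.98% to 2.52% in those other 3. In lymph nodes the shares were 4.20% in N against WT and 4.08% in HetWT against WT. They were 6.49% in HetNrp1def against HetWT and 6.14% in HetNrp1def against WT lymph node Tregs. DESeq2 called 1 member in HetNrp1def against WT lymph node Tregs and 0 in the other 7.

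Mki67 in HetWT tumour Tregs, at 345 to 625 CPM, lay above every WT tumour sample (224 to 339 CPM), with a log2 fold change of 0.75 (SE 0.42, adjusted p = 1). It was the 1 member of 44 to do so there, as did 0.355% of all genes. Bub1b lay wholly below in HetNrp1def against HetWT tumour Tregs, as did 0.668% of all genes. In lymph nodes Prc1 lay wholly below in HetNrp1def against HetWT (0.866% of all genes) and Cenpe in HetNrp1def against WT (0.355%). In the N against WT tumour comparison the anchor genes gave log2 fold changes of 0.27 for Mki67, 0.08 for Top2a, -0.85 for Cdk1, -0.01 for Ccnb1, -0.56 for Aurkb, -0.94 for Birc5, -0.93 for Plk1 and 0.18 for Foxm1, each with an adjusted p of 1. In the N against WT lymph node comparison the same genes gave -0.12, 0.56, 0.44, 1.43, 0.94, -0.20, 1.07 and 0.49 in that order, again with adjusted p of 1. The SE of a single member between genotypes had a median of 0.81 in the N against WT tumour comparison, so log2 differences of that size were not detectable here.

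HetNrp1def lymph node Tregs had the lowest member mean of the Treg groups, 4.20 ± 0.83, against 5.06 ± 0.57 in HetWT lymph node Tregs. Replicate numbers pair these samples, and HetNrp1def was lower in all 4 pairs, with 4.77 against 5.35 in HetWT for number 2, 4.91 against 5.72 for number 4, 3.10 against 4.58 for ds1 and 4.03 against 4.59 for ds2. The median log2 fold change of the members between them was -0.90, and 7 of 44 were positive, as were 44.5% of all genes. The most negative was Kif23 at -2.76 (adjusted p = 0.646). Against WT lymph node Tregs the member mean of HetNrp1def was higher for number 2, at 4.77 against 4.47. It was lower for number 4 (4.91 against 5.16), ds1 (3.10 against 5.00) and ds2 (4.03 against 4.90). The members' median log2 fold change against WT was -0.08 with the single-sorted libraries alone and -1.83 with the double-sorted ones. Against HetWT these medians were -0.66 and -1.13. The ds1 sample of HetNrp1def had the lowest value of its group in 28 of the 44 genes and 0 reads in 2, and the highest in 10. The change between tissues was also set against genotype. N against WT, HetNrp1def against HetWT and HetWT against WT gave 0 members in either direction (0% of all genes), with 1, 2 and 0 members higher and 0, 0 and 0 lower at an unadjusted p under 0.05, and DESeq2 called 0 in each. Of all genes, 3.10%, 3.89% and 3.87% were at such a p, in that order.

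**Figure D5:**
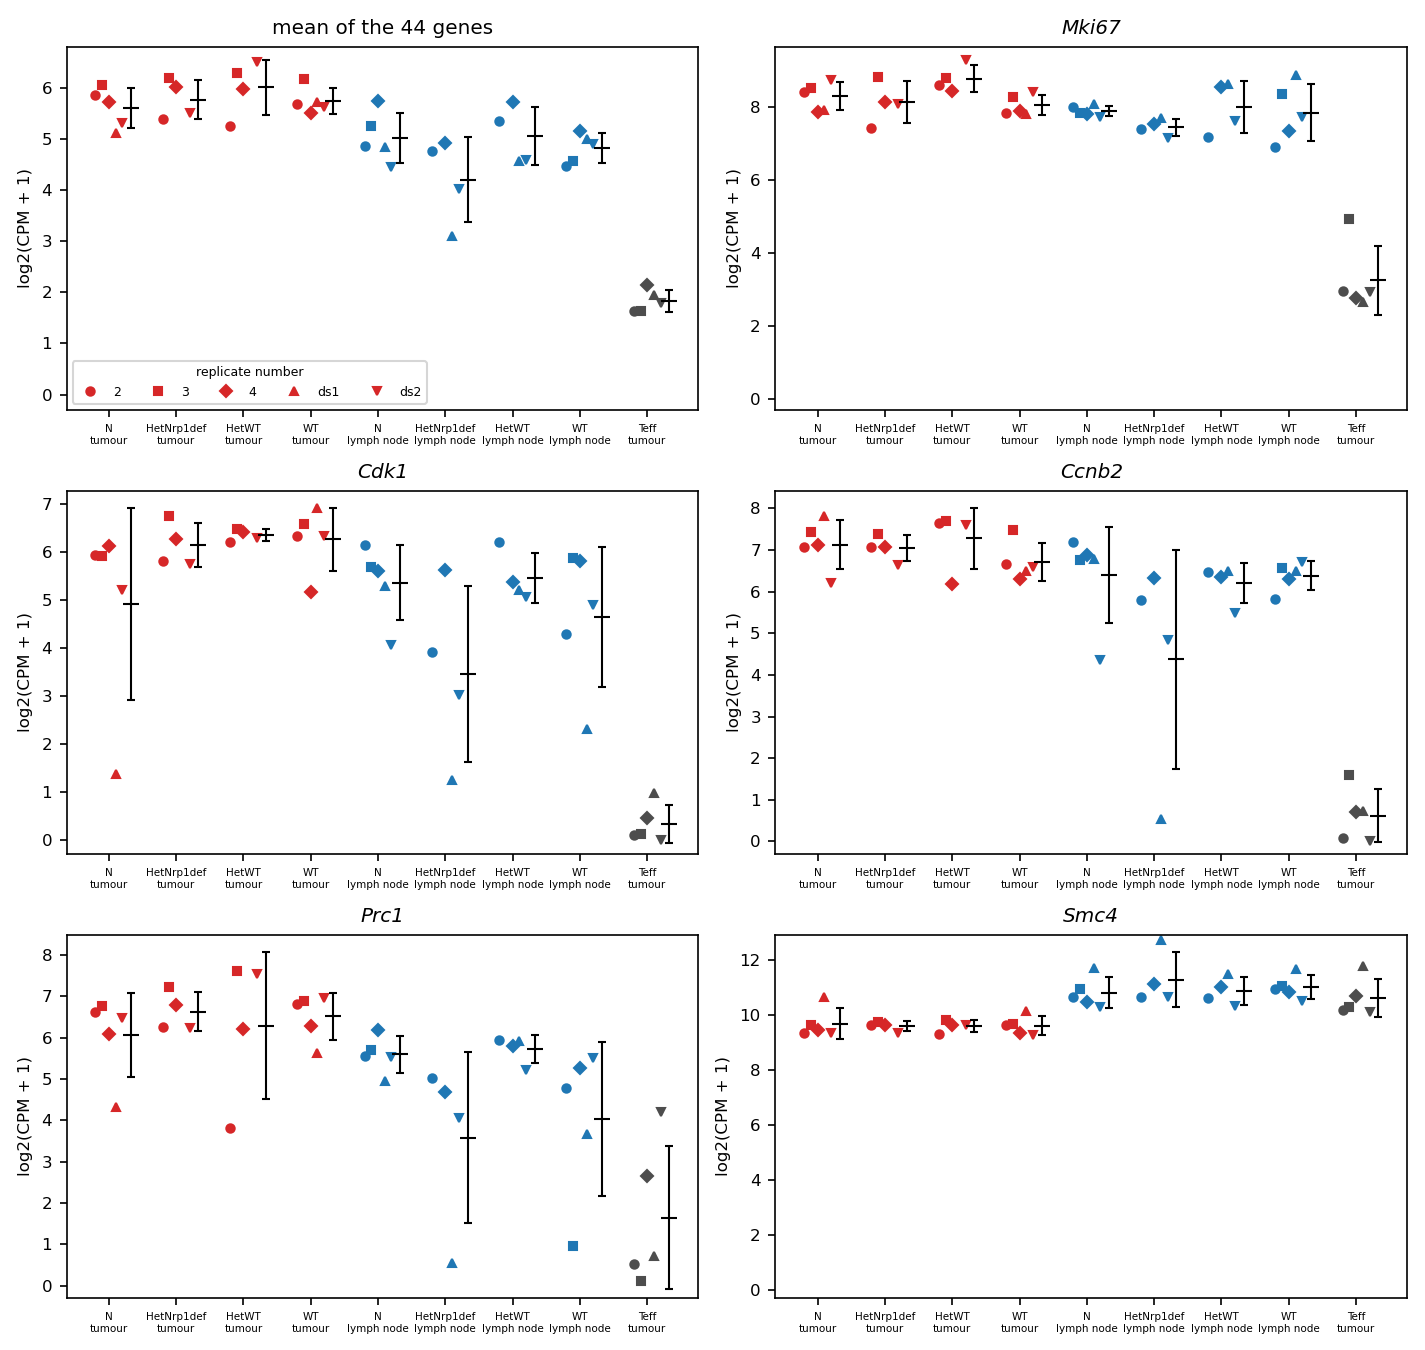
Log2(CPM + 1) of the 44-gene mean and of single division genes in each sample (points, shaped by replicate number) with group mean and SD (bars), tumour Tregs in red, lymph node Tregs in blue and effector T cells in grey. On the 44-gene mean every Treg sample lies above the effector samples, which run from 1.63 to 2.14; of the genes shown, Smc4 alone has its lowest group means in tumour Tregs.

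Levels between genes can be compared only per length, here as CPM per kilobase of annotated exon. By the median over the 36 Treg samples, Smc4 stood far ahead at 240.3, followed by Ccnb2 at 63.6, Ube2c at 42.8, Birc5 at 39.4, Top2a at 26.1, Smc2 at 25.3 and Mki67 at 24.5 CPM per kilobase. The lowest were Anln at 1.67, Kif20a at 1.72 and Spag5 at 2.04. In effector T cells Smc4 kept its median, 239 CPM per kilobase, with Smc2 at 9.49 and Cenpa at 6.41 next, and 40 of the 44 medians were below 2. Smc4 weighed so much in summed CPM that the sum of the 44 genes, 4156 CPM in WT tumour Tregs and 4399 CPM in WT lymph node Tregs, ran against the order of the log2 means, 5.74 in WT tumour and 4.82 in WT lymph node Tregs. Without Smc4 those means were 5.65 in WT tumour and 4.68 in WT lymph node Tregs.

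Members varied unequally among the 36 Treg samples. The SD of log2(CPM + 1) was 0.55 for Mki67, 0.75 for Smc2, 0.81 for Top2a and 0.84 for Smc4, the smallest of the set. It reached 1.69 for Ncapg and for Ect2, whose medians were 32.3 and 28.3 CPM. The ds1 samples held both ends of many groups: in WT tumour Tregs ds1 was lowest for 14 members and highest for 19, and in N tumour Tregs lowest for 20 and highest for 18. In effector T cells the ds2 sample had no reads for 17 of the 44 genes and the ds1 sample had reads for all. The part of double sorting in this was not tested.

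Other mitosis genes, not members, were counted in the same comparisons. Of 65 tested, 31 (47.7%) were higher in WT tumour Tregs than in effector T cells, 29 in N, 24 in HetNrp1def, 26 in HetWT and 23 in WT lymph node Tregs, and 0 were lower in any. In WT tumour Tregs they included Melk at 7.58 (SE 1.19, adjusted p = 8.01e-06), Cdca5 (sororin, which guards cohesion) at 7.39 (SE 1.22, adjusted p = 1.98e-05), Spc24, a partner of Ndc80, at 4.42 (SE 0.79, adjusted p = 8.00e-05) and Shcbp1 at 8.65 (SE 1.56, adjusted p = 1.01e-04). Their median log2 fold changes were 3.37 in WT, 3.43 in N, 3.09 in HetNrp1def, 3.37 in HetWT tumour Tregs and 2.75 in WT lymph node Tregs. Between tissues, over 4 genotypes, 3 were higher (Casc5, Kif20b and Fam64a, at 1.68, 1.37 and 1.64) and 0 lower, a share of 4.62% that was near the 5.84% of all genes.

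DNA replication genes act earlier in the cycle. Of 33 tested, 12 (36.4%) were higher than in effector T cells in WT, 10 in N, 10 in HetNrp1def and 10 in HetWT tumour Tregs and 5 in WT lymph node Tregs, and 0 were lower. Rrm2, the regulated subunit of ribonucleotide reductase, was higher in WT tumour Tregs by 4.28 (SE 0.66, adjusted p = 6.94e-06), Tk1, thymidine kinase, by 5.80 (SE 1.01, adjusted p = 4.77e-05), and Tyms, thymidylate synthase, by 2.46 (SE 0.56, adjusted p = 0.00216). Between tissues, over the 4 genotypes, 4 of 33 were higher in tumour Tregs (12.1%) and 0 lower, where 5.84% of all genes were higher and 5.37% lower. Tyms was higher in tumour Tregs by 0.97, Mcm10 by 1.90 and Tk1 by 1.25 on the log2 scale.

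Genes that restrain the cycle were called in small number. With effector T cells as the comparison, 1 of 22 was higher in WT tumour Tregs (4.55%) and 2 lower (9.09%), where 4.10% of all genes were higher and 1.61% lower. Cdkn1a, the inhibitor p21, was higher in WT tumour Tregs than in effector T cells by 8.18 (SE 1.40, adjusted p = 3.77e-05), while Klf2 and Foxo1, factors of resting T cells, were lower, at -2.55 (SE 0.51, adjusted p = 3.86e-04) and -1.49 (SE 0.34, adjusted p = 0.00215). The same 3 were called in N and HetNrp1def tumour Tregs. In HetWT tumour Tregs Cdkn1a and Cdkn2b were higher and Foxo1 lower, and in WT lymph node Tregs 0 were called. Over the 4 genotypes, 3 of 22 were higher (13.6%) and 3 lower (13.6%) in tumour than in lymph node Tregs, where 5.84% and 5.37% of all genes were. Tumour Tregs were higher than lymph node Tregs in Cdkn1a (2.58 (SE 0.56, adjusted p = 9.26e-04)), Cdkn2b (5.42 (SE 1.14, adjusted p = 6.04e-04)) and Cdkn2c (1.57 (SE 0.45, adjusted p = 0.015)) and lower in Klf2 (-1.84 (SE 0.26, adjusted p = 5.68e-07)), Foxo1 (-1.12 (SE 0.18, adjusted p = 5.02e-06)) and Btg1 (-0.72 (SE 0.23, adjusted p = 0.0363)). Of 9 G1 cyclins, kinases and factors, Ccnd1 alone passed there, at 2.29 (SE 0.66, adjusted p = 0.0144), and 0 passed against effector T cells.

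Markers of other cells moved with some of these groups. All 12 melanocyte markers had reads in every tumour Treg group, and their sum lay between 7.63 and 741.8 CPM in N, between 17.5 and 1887 CPM in HetNrp1def, between 27.2 and 2206 CPM in HetWT and between 9.34 and 3858 CPM in WT tumour Tregs. They summed to 2.54 to 73.1 CPM in lymph node Tregs, where Mlana and Cited1 in WT, Gpr143 in N and Tyrp1 and Gpr143 in HetNrp1def were at 0, and to 3.65 to 83.1 CPM in effector T cells. Without the samples over 100 CPM, the members called against effector T cells were 22 in WT (34 with all samples), 31 in N (35), 18 in HetNrp1def (33) and 30 in HetWT (35). This left 2 tumour samples each in WT, HetNrp1def and HetWT and 4 in N. The members' median log2 fold changes were then 4.26 in WT, 4.37 in N, 3.84 in HetNrp1def and 4.96 in HetWT. The 4-genotype tissue mean had 1 call there, where all samples gave 9, with a member median of 0.62 (0.88 with all samples). The 8 B cell markers summed to 3.92 to 68.0 CPM in tumour Tregs, to 5.55 to 729.6 CPM in lymph node Tregs and to 5.24 to 68.3 CPM in effector T cells, and only Pax5, in HetWT tumour Tregs, was at 0 in a group. The 9 myeloid markers found, of 10 listed, had reads in every group and summed to 1.49 to 258.0 CPM in tumour Tregs, to 0.180 to 121.9 CPM in lymph node Tregs and to 5.15 to 29.6 CPM in effector T cells. The part of melanoma, CD8 T, B and myeloid cells in the division gene levels was not tested.

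Some members share reads or sequence with other genes, and the strand setting of the counting is not given in the sources used here. Kif20a overlaps Cdc23 over 29.3% of its exon length, Ube2c overlaps Tnnc2 over 22.8% and Kif4 overlaps Pdzd11 over 15.1%. Pseudogenes named for Ccnb1, Ccnb2, Kif22 and Kif4 are annotated, so reads of those 4 could have been split or shared.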

How the data were processed

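RNA-seq counts of 45 libraries were used. Per the labels' protocols each Treg library came from about 5000 sorted cells, and no number is given for effector T cells. The authors deposited raw read counts per gene symbol and, in a second table, log2 values of 10832 genes that they had normalized and filtered. STAR, featureCounts, limma and the mm10 build are named per the submitters' processing notes, while the sources used here give no version, annotation or strand setting. In the authors' log2 table every gene has the same mean in each replicate number (to within 3.78e-13, where log2 CPM of the counts spread by a median of 1.67), so differences between replicate numbers had been removed there. The counts were therefore the main values and the log2 table an alternative.

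Within a group, libraries whose counts differed by a chi-square per degree of freedom under 5 were summed as 1 sample (4 pairs, up to 2.75; the next pair stood at 68.4), which left 41 samples in 9 groups. Genes were kept by edgeR's filterByExpr, scaled by TMM and fitted with edgeR's quasi-likelihood test (edgeR 4.0.16, limma 3.58.1, R 4.3.3), all groups in 1 fit, no covariate, 32 residual degrees of freedom. P-values are two-sided and adjusted by Benjamini-Hochberg over 14668 genes in each of 21 comparisons. Alternatives were RLE factors, other filters, DESeq2 1.42.0, a replicate block, subsets of samples, limma on the log2 values and leaving out each sample. The code was tested on simulated data.

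The members and lists were chosen with earlier results of these data known, so no pattern of theirs is independent evidence. Members called in a comparison are named, up to 25 by adjusted p, with Mki67, Top2a, Cdk1, Ccnb1, Aurkb, Birc5, Plk1 and Foxm1 in the WT and N comparisons, and at most 6 called genes of each other list. All members are also described by role. Replicate numbers were taken to pair samples where every same-numbered pair's deviations correlated above 0.1. That held for 3 lymph node comparisons with 4 pairs each, HetNrp1def against HetWT (lowest r 0.143), HetNrp1def against WT (0.117) and HetWT against WT (0.117), and for none of the other direct comparisons. Sequences come from RefSeq tables.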

Additional observations from a re-analysis of the deposited data

Results flagged for a closer look

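Among the 8 members Mki67, Top2a, Cdk1, Ccnb1, Aurkb, Birc5, Plk1 and Foxm1 and the 44-gene mean, 10 of 81 group and measure pairs held a lone sample, one whose gap to its nearest neighbour took up most of the group's range on the log2(CPM + 1) scale. Chance flags about 1 in 20 groups.

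Cdk1 in N tumour Tregs had ds1 lowest, at 1.37 against 5.20 for the nearest sample, a gap of 0.805 of the range. Plk1 had ds1 lowest there too, at 2.57 against 4.36 (0.735). In HetWT lymph node Tregs ds1 was lowest for Plk1, at 0.55 against 3.93 (0.966). In effector T cells ds1 was highest for Aurkb, at 0.98 where the others were at 0 (a gap of 1, the whole range), and ds2 was highest for Ccnb1, at 3.79 against 1.13 (0.719). These 5 are libraries named ds1 or ds2, read here as double-sorted, and the part of sorting was not tested.

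The other 5 are samples numbered 2 to 4, read here as single-sorted. Ccnb1 was highest in HetNrp1def tumour Tregs 3, at 7.08 against 6.29 (0.855), and lowest in WT lymph node Tregs 4, at 4.03 against 5.06 (0.830). Aurkb was lowest in HetWT tumour Tregs 2, at 3.17 against 5.95 (0.852). Top2a was lowest in WT lymph node Tregs 2, at 6.98 against 7.65 (0.732). Mki67 was highest in effector sample 3, at 4.94 against 2.96 (0.866). Effector sample 3 still lay below every Treg sample of the series for Mki67.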

How the results depend on the processing

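Calls of members in Tregs against effector T cells moved most with the double-sorted libraries alone, 2 a group, where they fell to 3 in WT (from 34), 3 in N (from 35), 4 in HetNrp1def (from 33), 6 in HetWT (from 35) and 3 in WT lymph node Tregs (from 24). The members' median log2 fold change in that setting was 4.07 in WT, 4.0 in N, 4.34 in HetNrp1def, 5.11 in HetWT and 3.94 in WT lymph node Tregs. With limma on the authors' log2 values they were 9 in WT, 30 in N, 14 in HetNrp1def, 20 in HetWT and 20 in WT lymph node Tregs. Without samples over 100 CPM of melanoma markers they were 22 in WT, 31 in N, 18 in HetNrp1def, 30 in HetWT and 19 in WT lymph node Tregs. With only the groups compared they were 29 in WT, 29 in N, 28 in HetNrp1def, 32 in HetWT and 9 in WT lymph node Tregs. With 1 sample left out, the count lay between 32 and 37 in N, between 30 and 33 in HetNrp1def, between 33 and 36 in HetWT, between 31 and 35 in WT and between 19 and 25 in WT lymph node Tregs.

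Between tissues, the 1 call in WT became 0 with RLE factors, DESeq2, double-sorted libraries, the authors' log2 values, only the groups compared and without melanoma samples, and 0 to 1 with 1 sample left out. The 0 calls in N became 1 without a filter, with the replicate block, with single-sorted libraries, with the authors' log2 values and without all ds1 or all ds2 samples. The 1 call in HetNrp1def became 2 with DESeq2 and 0 with double-sorted libraries, only the groups compared or no melanoma samples, and 0 to 1 with 1 sample left out. The 0 calls in HetWT became 1 with the 45 libraries as deposited, the replicate block, single-sorted libraries, the authors' log2 values and without all ds1 samples. On the authors' log2 values the members' median between tissues was -0.66 in WT and -0.016 in HetWT. The 9 calls of the 4-genotype mean became 15 with 45 libraries, 16 with DESeq2, 1 with double-sorted libraries, 5 with single-sorted libraries, 1 with the authors' log2 values, 15 with only the Treg groups, 1 without melanoma samples, 16 without all ds1 samples, 3 without all ds2 samples and 4 to 11 with 1 sample left out. On the authors' log2 values Ccnb2 there turned to -0.51, and Smc4 to 0.048 in the WT tumour Tregs set against effector T cells. HetNrp1def against WT lymph node Tregs went to 1 call with DESeq2. The other genotype and interaction comparisons gave 0 in every setting.

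With the replicate block, calls were 35 in WT, 38 in N, 37 in HetNrp1def, 39 in HetWT and 24 in WT lymph node Tregs against effector T cells, 1 in each tissue comparison, 8 for the 4-genotype mean and 0 between genotypes, so the block changed no call in the 3 comparisons whose numbers pair the samples. The mean level of the members in effector T cells was 0.98 with a pseudocount of 0.25, against 1.83 with 1. Of the log2 fold changes of named members with 1 sample left out, 3181 kept direction and call, 131 uncalled values turned sign, 207 lost the call and 7 gained it; under the other settings these were 3354, 200, 397 and 23. The causes were not tested. Sample number and depth limit the precision, with members at a few counts in effector T cells.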
